A study of Mus musculus with 4 samples.

Results

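Slpi and 8 other genes for secreted host-defence proteins were followed in freshly sorted mouse peritoneal mesothelium. The 9 genes were selected on their level in these same libraries and on their known function, and were taken by symbol from a table of 48425 genes. All 9 symbols were found. They comprise the WAP-domain genes Slpi, Wfdc1, Wfdc2 and Wfdc15b, the iron-withholding genes Lcn2 and Ltf, the lysozyme genes Lyz1 and Lyz2, and the cathelicidin gene Camp. The series holds 1 group of 4 wild-type C57BL/6 mice aged 10 weeks, with 1 RNA library per animal and no contrast. Cells were freed from the cavity wall with 0.25% trypsin for 20 min at 37 °C and sorted as CD45-negative, podoplanin-positive and Gpm6a-positive, so the measured cells had been digested and gated before lysis. Sex and collection time are not given in the sources used here.

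The WAP domain is a small fold held together by disulfide bonds. SLPI carries a pair of such domains and blocks serine proteases that neutrophils release, among them elastase and cathepsin G. It also damps NF-kappaB signalling and kills bacteria at mucosal surfaces. Lipocalin 2 (Lcn2) binds bacterial siderophores and lactoferrin (Ltf) binds iron, lysozymes cut the bacterial cell wall, and Camp encodes the precursor of an antimicrobial peptide. In mice Lyz2 is known as a gene of macrophages and neutrophils, Lyz1 as a gene of intestinal Paneth cells, and Ltf and Camp as neutrophil granule genes.

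Levels are counts-per-million (CPM), each estimated count over the summed counts of its library, and log2 values are log2(CPM + 0.5). Levels are described with no test, because they had a part in the choice of the genes. The libraries held 4090224 to 4569578 estimated counts, which limits the low genes: 3 counts correspond to 0.657 to 0.733 CPM in a single library and 0.171 CPM over the group, for counting error only. Of 17 mesothelial marker genes, 16 reached 1 CPM in every animal, led by the uroplakin gene Upk3b at 4135 ± 236 CPM, the keratin gene Krt19 at 2300 ± 954 CPM, the mesothelin gene Msln at 2257 ± 393 CPM and the uroplakin gene Upk1b at 2225 ± 241 CPM (SD, n = 4 each), and Calb2 had no count. Of 10 fibroblast genes 9 reached it too, led by Dcn, Col3a1, Col1a2 and Col1a1. Of all genes in the table, 24.1% did. The libraries fell into 2 pairs: rounded counts differed by a chi-square per gene of 10.68 between animals 1 and 4 and 15.51 between animals 2 and 3, against 20.46 to 26.23 for the other pairs. The labels give no batch, and the part of this pairing in the differences between animals given below was not tested. Animals 2 and 3 were the 2 highest for 26.4% of the 13721 genes with a mean of 1 CPM or more. In bulk RNA, fewer cells of a type and less RNA per cell cannot be told apart.

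Sequence upstream of Slpi and Lcn2 is shown because animal 3 was lowest for both, as described further on. Animal 1 was highest for both, but for Lcn2 by 53.3 against 47.2 estimated counts in animal 2, so its highest animal is uncertain. RefSeq start sites gave promoters for 8 of the 9 genes (GRCm38.p6). The 250 bases before the start lay at chr2:164356508-164356757 for Slpi and chr2:32387740-32387989 for Lcn2, both on the minus strand. Capitals mark matches, on either strand, to the E-box CACGTG or to TTGCNNAA, a C/EBP-type pattern.
Slpi: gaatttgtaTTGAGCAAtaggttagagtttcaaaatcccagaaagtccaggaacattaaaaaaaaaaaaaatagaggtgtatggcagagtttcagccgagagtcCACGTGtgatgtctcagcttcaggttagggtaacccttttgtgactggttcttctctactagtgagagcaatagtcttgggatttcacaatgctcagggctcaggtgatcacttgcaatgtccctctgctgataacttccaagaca
Lcn2: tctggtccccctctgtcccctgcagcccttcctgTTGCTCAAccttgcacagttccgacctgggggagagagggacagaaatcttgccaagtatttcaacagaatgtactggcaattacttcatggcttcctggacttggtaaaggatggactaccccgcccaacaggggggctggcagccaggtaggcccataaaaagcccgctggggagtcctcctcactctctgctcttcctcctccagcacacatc
Both stretches held TTGCNNAA, from position -241 to -234 relative to the start of Slpi and from -216 to -209 relative to that of Lcn2. It was also in the promoters of Ltf, from -75 to -68, and Lyz1, from -209 to -202, and Ltf had no count in any library. This pattern occurs in 9.6% of 27025 promoters of the same length. The E-box lay from -146 to -141 at Slpi and occurs in 6.0% of those promoters. Neither TATAAA, found in 13% of promoters, nor an NF-kappaB-like pattern, found in 17.3%, had a match in these 2 windows. The patterns do not overlap one another in the printed sequences. They were searched as letters only and were chosen after the levels were known.

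Slpi was among the most abundant transcripts of the mesothelium. It had 13436, 9115, 5651 and 10955 CPM in animals 1 to 4, a mean of 9789 ± 3278 CPM (SD, n = 4). Animal 1 was highest and animal 3 lowest. These values made up 1.34%, 0.911%, 0.565% and 1.10% of all counts in the 4 libraries. By CPM, Slpi ranked 2nd, 6th, 10th and 4th of 48425 genes in animals 1 to 4, and its mean ranked 5th. By mean level it stood between Dcn, a matrix proteoglycan, at 12889 ± 2116 CPM and Actb, cytoplasmic actin, at 10718 ± 2571 CPM above, and Fth1, a ferritin subunit, at 8993 ± 1342 CPM and Ubb, a ubiquitin gene, at 8892 ± 536 CPM below (SD, n = 4 each). These ranks do not correct for transcript length. The gene lies on chromosome 2 at 164354070 to 164389095 (GRCm38, minus strand; GENCODE M21) with 3 annotated transcripts, the longest of 876 bases in 4 exons. None of its 1145 annotated 31-base words occurs in transcripts of another gene.

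Wfdc1, which encodes a secreted WAP protein known as a growth inhibitor from prostate stroma, was the other abundant member. It had 322, 262, 310 and 355 CPM in animals 1 to 4, a mean of 312 ± 38.3 CPM (SD, n = 4), and its mean ranked 481st. All 4 animals lay within 1.35-fold of each other. Of all genes, 3.59% had a mean of 100 CPM or more, and Slpi and Wfdc1 were the 2 members that did. Wfdc1 lies on chromosome 8 at 119666365 to 119688222 (plus strand). An antisense gene, Gm32352, lies within its span with no exon overlap.

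Lcn2 was low but present in every animal. Its values were 11.7, 10.8, 2.63 and 7.26 CPM in animals 1 to 4, which rest on 53.3, 47.2, 12.0 and 29.7 estimated counts, and its mean was 8.09 ± 4.103 CPM (SD, n = 4). Animal 3 had the lowest value, as it had for Slpi. The gene lies on chromosome 2 at 32384633 to 32388252 (minus strand). Slpi, Wfdc1 and Lcn2 were the 3 members at 1 CPM or more in 4 of 4 animals; among all genes of the table, 24.1% met the same rule. Since the levels were known when the genes were proposed, nothing is read from that count. Here and below, all genes means every symbol of the table, not protein-coding genes alone. No share was computed over protein-coding genes only, so the shares set beside the lists are a rough guide.

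Wfdc2, whose human counterpart HE4 is an ovarian tumour marker, was near the limit of counting. Animals 1 to 4 had 4.36, 0.165, 3.34 and 5.45 CPM, a mean of 3.33 ± 2.28 CPM (SD, n = 4), from 58.2 estimated counts in all. Animal 2, with less than 1 count, lay below the other animals. Wfdc15b, another WAP gene of chromosome 2, had 0.965 estimated counts in all, in animal 3 alone. That is below the 3 counts that correspond to 0.171 CPM for the group, so its level is not known. Ltf, on chromosome 9 at 111019271 to 111042767, and Camp, on the same chromosome at 109847379 to 109849617, had no count in any library and are limited by the same 0.171 CPM. No count in any library was also the state of 52.6% of all genes.

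**Figure D1:**
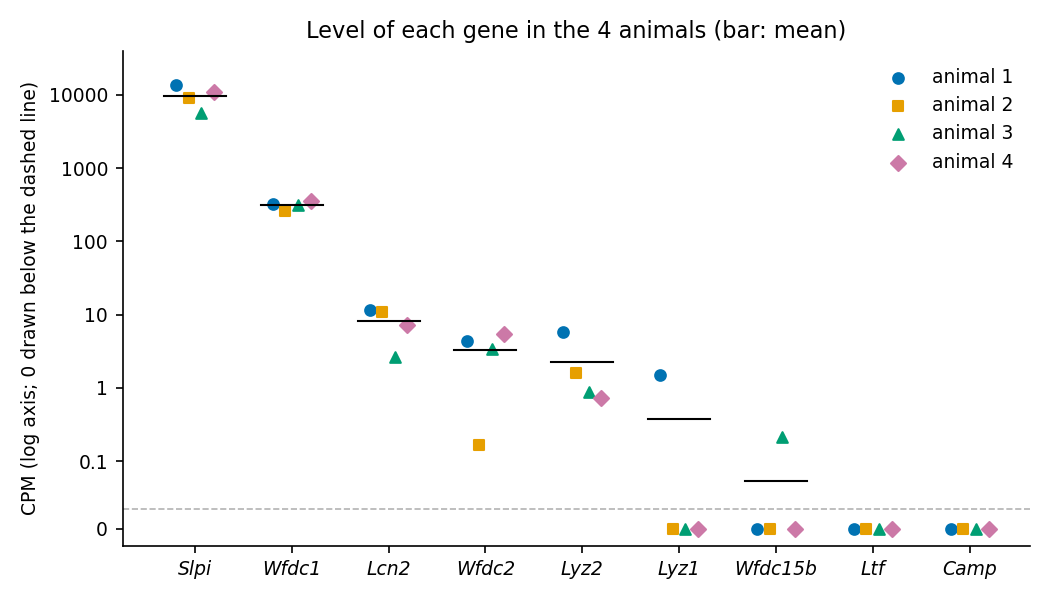
CPM of the 9 genes in each of the 4 animals on a log axis, with values of 0 drawn below the dashed line and the mean as a bar where it is above 0. Slpi lies between 5651 and 13436 CPM, Wfdc1 between 262 and 355 CPM, and Ltf and Camp at 0 in all animals.

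Divided by the length of the longest annotated transcript, the order of the members was Slpi, Wfdc1, Lcn2, Wfdc2, Lyz2, Lyz1 and Wfdc15b, with Ltf and Camp at 0. Slpi had 15338, 10405, 6451 and 12505 CPM per kb and Wfdc1 235, 191, 226 and 259 CPM per kb in animals 1 to 4. The within-animal ratio of these length-corrected levels was 28.5 to 65.3. Wfdc1 exceeded Lcn2 24.3-fold to 118-fold on the same scale. Lcn2 and Wfdc2 could not be ordered: Lcn2 was higher in 2 of 4 animals. Wfdc2 was above Lyz2 in 3 of 4 animals, so these neighbours did not separate either. Slpi made up 96.5% to 98.4% of the summed length-corrected level of the 9 genes.

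The level of Slpi differed between the animals. Its coefficient of variation was 33.5%, where Poisson counting alone would give 0.48%, but the libraries as a whole also differed by more than counting. The highest animal exceeded the lowest 2.38-fold. The SD of its log2 values was 0.534, against a median of 0.225 over the 129 genes with a mean of 1000 CPM or more, where Slpi was the 14th most variable. Without animal 3 the highest Slpi value exceeded the lowest 1.47-fold and Slpi was 43rd of 129. Wfdc1 had a coefficient of variation of 12.3%, against 2.70% from counting, and its SD exceeded that of 44.4% of 392 genes of like level. Lcn2 had 50.7% against 16.8% from counting, and its highest animal exceeded its lowest 4.43-fold, or 1.61-fold without animal 3.

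Fibroblast and mesothelial marker levels were set beside this spread. The summed fibroblast list had 15100, 22467, 19829 and 14828 CPM in animals 1 to 4, so animals 2 and 3, with the lower Slpi values, had the higher sums. Most of that sum was Dcn. Animals 2 and 3 were the 2 highest for 26.4% of genes with a mean of 1 CPM or more. On the fibroblast list they were so for 7 of the 10 genes, among them Dcn, Col3a1, Col1a2 and Col1a1. The other genes went otherwise: Thy1 had 31.2, 10.5, 30.4 and 33.8 CPM, with animal 2 lowest, Lum had 87.4, 131, 37.3 and 48.5 CPM, with animal 3 lowest, and Pdgfra was highest in animals 2 and 4. Col3a1, a fibrillar collagen gene, had 2121, 3942, 2965 and 1936 CPM. The summed mesothelial list had 18657, 20614, 18366 and 18694 CPM. It varied less, and its value in animal 3, the lowest, lay close to those in animals 1 and 4. Within that list, animal 3 was lowest for Msln, Upk1b, Gpm6a and Krt7 and highest for Krt8, Bnc1 and Rspo1. The part of fibroblast RNA in the Slpi values was not tested.

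The 4 animals ranked 1, 4, 2, 3 from high to low for Slpi and 1, 2, 4, 3 for Lcn2. For Lcn2 the step from animal 1 to animal 2 is uncertain, since it rests on 53.3 and 47.2 estimated counts. For Wfdc1 and Wfdc2 the order was 4, 1, 3, 2. Among other genes with a mean of 1 CPM or more, 3.48% ranked the animals as Slpi did and 2.73% as Lcn2 did. These orders were compared after the values had been seen, and with 4 animals no correlation was computed. Likeness to Slpi was instead measured as the root mean square difference of centred log2 values over the 4 animals, among 1737 other genes with a mean of 100 CPM or more. The nearest were Tmod3, an actin filament capping gene, at 0.109, Cd151, a tetraspanin, at 0.109, and Btg2, an antiproliferative immediate early gene, at 0.116. Btg2 had 2221, 1374, 902 and 2055 CPM in animals 1 to 4, a range of 2.46-fold. Tmod3 had 312, 221, 159 and 289 CPM, and Cd151 had 382, 287, 188 and 302 CPM. Only 0.403% of these genes lay within 0.15 of Slpi. For Wfdc1 the nearest were Atp6v1g1, a proton pump subunit, at 0.028, Nsd3, a histone methyltransferase, at 0.032, and Rabac1 at 0.033, but 21.2% of the genes lay within 0.15 of it. None of the 3 genes nearest Slpi remained among its 10 nearest when animal 1, 2 or 3 was left out, so the likeness describes these libraries only.

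**Figure D2:**
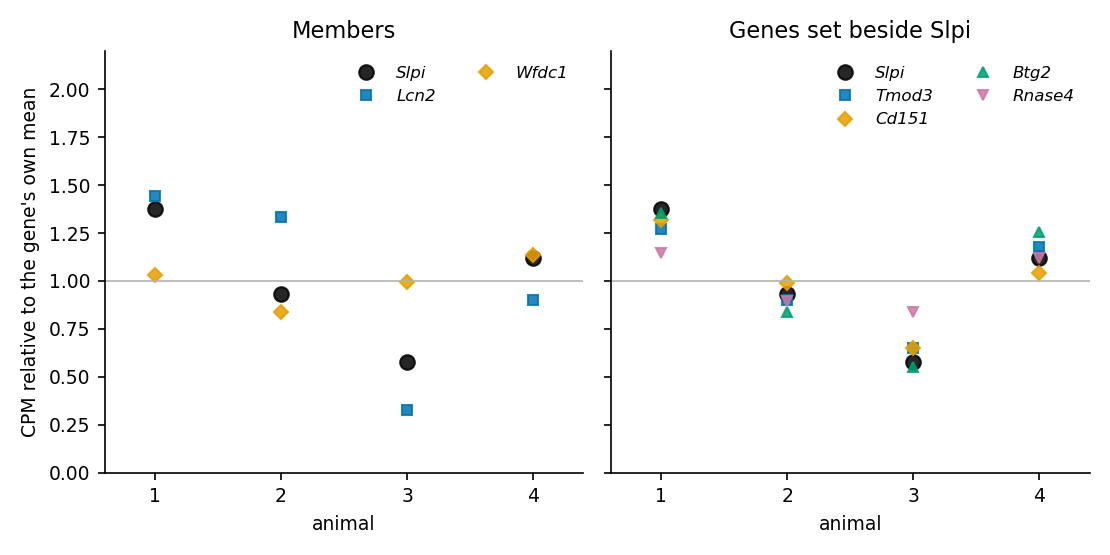
CPM of each gene divided by its own mean, for animals 1 to 4. Left, Slpi, Lcn2 and Wfdc1: Slpi and Lcn2 are lowest in animal 3, while Wfdc1 stays near 1. Right, Slpi with the 3 nearest genes (Tmod3, Cd151, Btg2) and Rnase4, all lowest in animal 3.

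Slpi, Wfdc2 and Wfdc15b belong to the WAP gene cluster of mouse chromosome 2, a group of small secreted protein genes that are expressed largely in the male reproductive tract and in epithelia. Within 250 kb of the RefSeq start of Slpi there were 23 other protein-coding genes of the table, 7 of them WAP genes. None of the 7 reached 1 CPM in all 4 animals and 4 had no count (Wfdc5, Wfdc12, Wfdc15a and Eppin). Wfdc6a had 3.22, 0, 0.660 and 0 CPM in animals 1 to 4. Of the 16 genes without WAP domains, 4 reached 1 CPM in all animals and 8 had no count. The shares over all genes, 24.1% and 52.6%, are not restricted to protein-coding genes as this window is. The closest neighbours on one side were seminal vesicle genes, of which Svs5 and Svs6 had 2.76 and 5.74 estimated counts in all. On the other side Sdc4, a heparan sulfate proteoglycan of the cell surface that starts 87.4 kb away, had 3498, 5223, 4632 and 4474 CPM, a mean of 4457 ± 716 CPM (SD, n = 4). Animal 1 was lowest for Sdc4 and highest for Slpi. Between Slpi and Sdc4 lay Matn4, at 2.83 ± 2.58 CPM, and Rbpjl, with 2.32 estimated counts. The window and Sdc4 were chosen after the values had been seen.

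**Figure D3:**
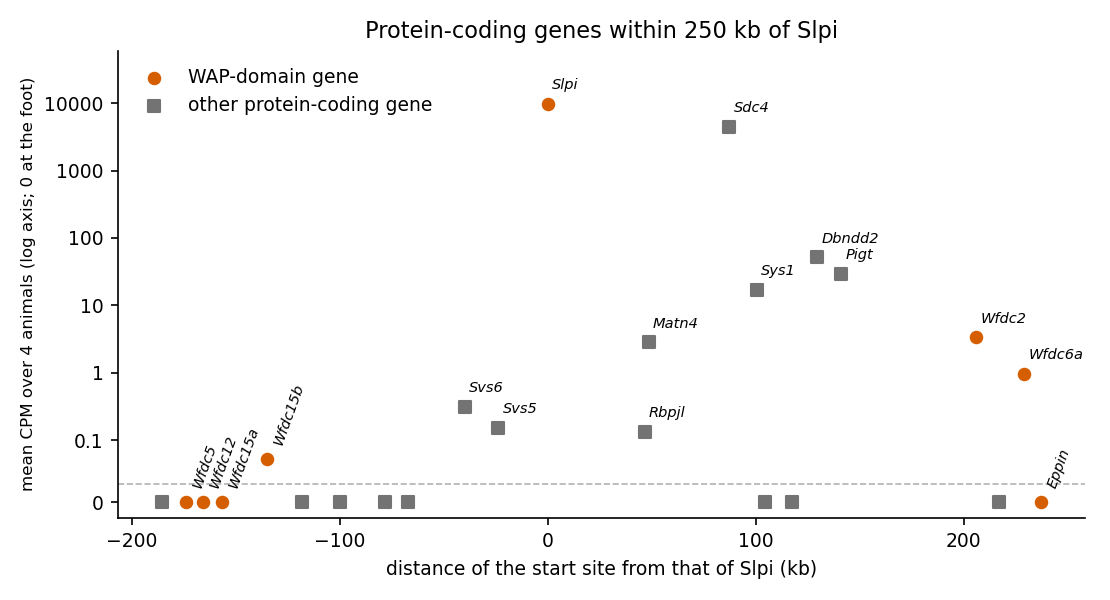
Mean CPM over 4 animals (log axis, 0 at the foot) of protein-coding genes against the distance of their start site from that of Slpi, in kb. WAP-domain genes are circles and other genes squares. Slpi at 9789 CPM and Sdc4 at 4457 CPM stand above all other genes in the window.

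The lysozyme genes stood apart in animal 1. Lyz2 had 5.73, 1.58, 0.868 and 0.722 CPM in animals 1 to 4, from 26.2, 6.92, 3.95 and 2.95 estimated counts. Lyz1 had 1.503 CPM in animal 1, from 6.87 estimated counts, and no count in the other animals. The mean of Lyz2 was 2.23 ± 2.37 CPM (SD, n = 4), and 1.06 ± 0.460 CPM without animal 1 (SD, n = 3). Both genes lie on chromosome 10 on the minus strand, Lyz2 at 117277331 to 117282321 and Lyz1 at 117287797 to 117292868. They are close copies. Their coding sequences, both of 447 bases, are 95.1% identical, and 34.2% of the 31-base words of Lyz1 occur in Lyz2. Bases 7 to 156 of the coding sequences are printed because they hold 15 of the 22 bases that differ, by which a read can be assigned to either gene; capitals mark these 15 bases.
Lyz1: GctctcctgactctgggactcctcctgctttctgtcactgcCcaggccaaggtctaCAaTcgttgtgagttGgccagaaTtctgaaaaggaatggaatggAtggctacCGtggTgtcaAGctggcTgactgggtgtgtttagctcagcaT
Lyz2: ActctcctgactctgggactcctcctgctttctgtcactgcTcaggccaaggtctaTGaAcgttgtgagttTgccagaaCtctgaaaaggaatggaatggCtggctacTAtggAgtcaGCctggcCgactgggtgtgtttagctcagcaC
Within the coding sequence, a read that covers no differing base does not tell the genes apart. Over whole transcripts, untranslated parts included, most 31-base words of each gene are not shared with the other. The split between the 2 genes is therefore partly uncertain, and their sum was 7.24, 1.58, 0.868 and 0.722 CPM in animals 1 to 4.

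Of 16 macrophage and monocyte markers 14 had counts, and animal 1, the highest for lysozyme, was highest for 6 of them, animal 2 for 4 and animal 3 for 4. Of 13721 genes with a mean of 1 CPM or more, 2814 were highest in animal 1, 3533 in animal 2 and 4470 in animal 3. Several markers rested on about 1 estimated count in all, among them Cx3cr1 (0.93), Adgre1 (0.97) and Tyrobp (1.02), so their highest animal is uncertain. Ptprc, which encodes CD45, had 3.05, 0, 0.187 and 0 CPM in animals 1 to 4. Laptm5, a lysosomal gene of blood cells, had 3.94, 3.04, 0 and 0.111 CPM, and the complement gene C1qb had 1.47, 0, 0.213 and 0 CPM. The 2 markers of the list that reached 1 CPM in every animal, where 24.1% of all genes did, were Csf1r and Cd68. They had 34.5 ± 5.22 CPM and 12.5 ± 5.23 CPM (SD, n = 4), both highest in animal 3. Mrc1, the mannose receptor gene, had 0, 0.746, 0 and 0.573 CPM, and the defining genes Itgam and Timd4 had no count. The summed level of the whole list was 49.98, 43.05, 60.29 and 50.63 CPM in animals 1 to 4, highest in animal 3 and not in the order of Lyz2. Most of that sum was Csf1r and Cd68. Without these 2 genes the sum was 9.50, 4.49, 1.16 and 0.858 CPM, in the order of Lyz2, on few counts per gene. The 2 genes, both highest in animal 3, were left out after the values had been seen, so nothing is read from that order. The part of leukocyte RNA in the lysozyme values was not tested. Of Csf1r's 31-base words, 14.95% occur in other genes, mainly Hmgxb3. All 10 Paneth cell markers had no count, as had 52.6% of all genes.

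**Figure D4:**
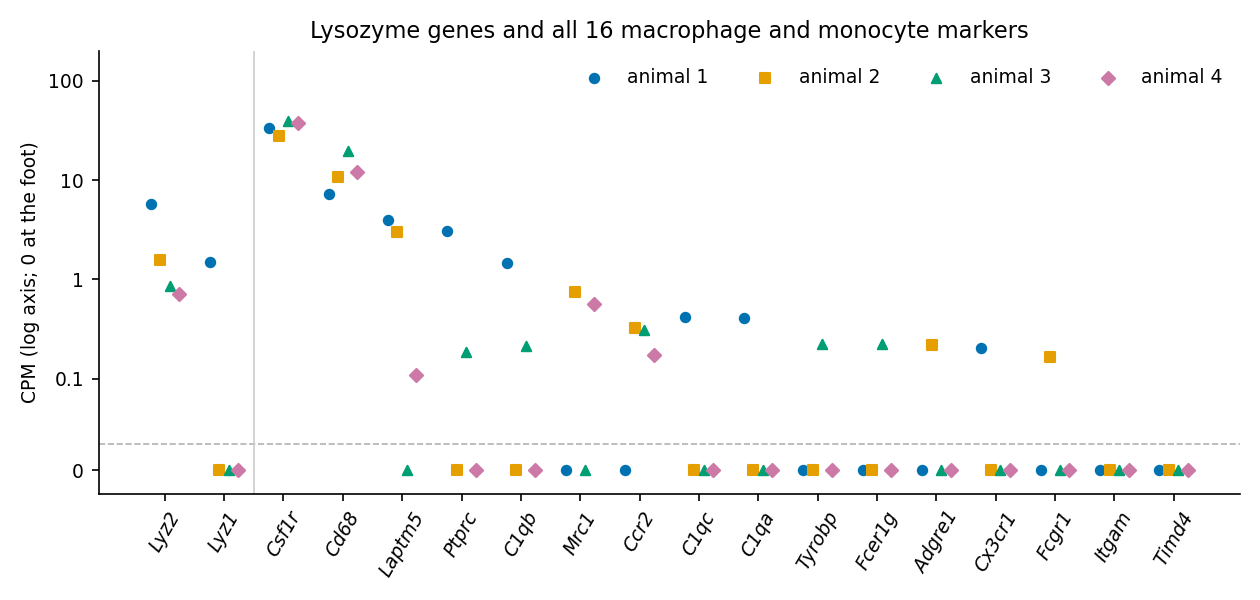
CPM of Lyz2 and Lyz1 (left of the line) and of all 16 listed macrophage and monocyte markers in each animal, on a log axis with values of 0 below the dashed line. Animal 1 is highest for Lyz2 at 5.73 CPM and for 6 markers, among them Ptprc at 3.05 CPM, while animals 2 and 3 are highest for 4 each. Several markers rest on about 1 count. Animal 1 was highest for 2814 of 13721 genes with a mean of 1 CPM or more.

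Markers of cells that make these proteins elsewhere were read beside Slpi and Lcn2. Of 15 neutrophil markers 9 had no count, among them S100a9, Elane and Ctsg; 52.6% of all genes had none. Only the chemokine receptor gene Cxcr2 reached 1 CPM in all animals, at 1.60 ± 0.512 CPM (SD, n = 4), and the list summed to 1.08 to 3.47 CPM. Of 10 epithelial markers Krt14 alone did so, at 290, 337, 77.4 and 69.7 CPM in animals 1 to 4, while Epcam had 1.05 ± 0.288 CPM and Krt5 and Upk2 no count. The same 1 CPM rule was met by 24.1% of all genes. The summed epithelial list was 72.5 to 347 CPM, and 28.2% of Krt14's 31-base words occur in other genes. Krt14 was high in animals 1 and 2, and Slpi in animals 1 and 4. The Slpi values of 5651 to 13436 CPM stood beside a neutrophil list whose genes averaged 1.60 CPM or less. The cells had been sorted as CD45-negative, and the part of neutrophil RNA in the Slpi values was not tested.

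Genes related to the members were counted in lists chosen with earlier results of these data known. Of 19 other WAP-domain genes, 13 had no count and 1 reached 1 CPM in all animals, where 52.6% and 24.1% of all genes did. That gene was Wfikkn2, which encodes an antagonist of the growth factors GDF8 and GDF11, at 5.19 ± 2.73 CPM (SD, n = 4). The next were Wfikkn1 at 1.47 CPM, Wfdc6a at 0.970 CPM and Wfdc3 at 0.229 CPM on average. The list's median level was 0 CPM, as was that of all genes.

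Of 37 other secreted antimicrobial genes 30 had no count, against 52.6% of all genes, and 5 reached 1 CPM in all animals, against 24.1% of all genes. Rnase4, a secreted ribonuclease, had 1497, 1170, 1091 and 1458 CPM in animals 1 to 4. It ranked the animals as Slpi did, an order shared with Slpi by 3.48% of other genes with a mean of 1 CPM or more. Ang, the angiogenin gene that shares its promoter region with Rnase4, had 103, 73.7, 79.0 and 101 CPM, with animals 1 and 4 highest again. The 2 genes share words, 13.75% of those of Ang occurring in Rnase4, so their split is uncertain. Adm, the gene of adrenomedullin, had 26.4, 6.53, 24.7 and 91.9 CPM, with animal 4 highest. Lbp, which hands bacterial lipopolysaccharide to CD14, had 9.80 ± 5.60 CPM, and the peptidoglycan-binding gene Pglyrp1 had 4.42 ± 1.64 CPM (SD, n = 4 each). Per length, Rnase4 at 859 ± 134 CPM per kb lay below Slpi at 11175 ± 3742 CPM per kb (SD, n = 4 each). Since the level of Slpi had a part in its choice, nothing is read from that difference.

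Serine proteases of neutrophils, mast cells and pancreas, among which the known targets of SLPI are found, were counted as a list. Of its 13 genes 11, including Elane, Ctsg, Cma1 and Tpsb2, had no count, against 52.6% of all genes. Cela1, a pancreatic-type elastase, was the 1 gene at 1 CPM or more in all animals, where 24.1% of all genes were. It had 14.01, 41.7, 25.4 and 12.1 CPM in animals 1 to 4. Animals 2 and 3 were the 2 highest for Cela1, as they were for 26.4% of genes with a mean of 1 CPM or more. Prtn3, the gene of proteinase 3, which SLPI is known not to inhibit, had 0.416 CPM on average. Among 7 other elastase inhibitors, Serpinb1a, an intracellular inhibitor of neutrophil proteases, had 447, 785, 740 and 496 CPM, again with animals 2 and 3 highest. Of its 31-base words 10.2% occur in other genes. A2m had 0.110 CPM on average and the 5 Serpina1 genes had no count, as had 52.6% of all genes. Serpinb1a was the 1 gene of the 7 at 1 CPM or more in all animals, where 24.1% of all genes were.

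All 4 genes for reported binding partners of human SLPI reached 1 CPM in all animals, where 24.1% of all genes did. Anxa2, a phospholipid-binding annexin, had 1533, 2835, 2081 and 1342 CPM in animals 1 to 4, a mean of 1948 ± 669 CPM. Grn, the gene of progranulin, which SLPI shields from elastase, stood at 394 ± 19.1 CPM. The scramblase genes Plscr1 and Plscr4 stood at 128 ± 12.1 and 59.4 ± 13.6 CPM (SD, n = 4 each).

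Of 8 receptor genes for the members, 4 reached 1 CPM in all animals and 4 had no count, where 24.1% and 52.6% of all genes did. Lrp1, an endocytic receptor that takes up lactoferrin, had 214 ± 25.8 CPM. Lrp2, the megalin gene, whose product takes up lipocalin 2 in kidney, had 79.2 ± 6.98 CPM with all animals between 74.3 and 89.5 CPM. The lipocalin 2 receptor gene Slc22a17 had 10.5 ± 2.55 CPM and P2rx7, named as a receptor for the human cathelicidin peptide, had 6.97 ± 3.61 CPM (SD, n = 4 each). Fpr1 and Fpr2, the formyl peptide receptor genes, Itln1 and Asgr1 had no count.

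Receptors and signal carriers known to induce Slpi or Lcn2 were widely present, with 15 of 17 at 1 CPM or more in all animals, against 24.1% of all genes, and a median of 24.3 CPM, against 0 CPM over all genes. The highest were the gp130 gene Il6st at 338 ± 51.9 CPM, the TNF receptor gene Tnfrsf1a at 178 ± 26.03 CPM, the oestrogen receptor gene Esr1 at 86.1 ± 40.4 CPM and the adaptor gene Myd88 at 76.3 ± 7.405 CPM (SD, n = 4 each). Esr1 had 48.2, 64.6, 141 and 91.1 CPM in animals 1 to 4, with animal 3 highest and animal 1 lowest. That is the reverse of these animals' places for Slpi. Vdr did not meet the rule, at 2.68 ± 2.83 CPM, and Pgr had no count.

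Of 12 transcription factor genes linked to these promoters, 6 reached 1 CPM in all animals and 3 had no count, where 24.1% and 52.6% of all genes did. Nfkbiz, the gene of the NF-kappaB cofactor IκBζ that Lcn2 induction requires, had 226, 502, 588 and 249 CPM in animals 1 to 4. Animal 3 was highest for Nfkbiz and lowest for Lcn2 and Slpi. Stat3 stood at 165 ± 31.01 CPM, Rela at 86.9 ± 16.2 CPM and Nfkb1 at 33.8 ± 8.80 CPM (SD, n = 4 each). Cebpd, a C/EBP factor of acute-phase genes, had 19.6, 15.8, 5.14 and 13.7 CPM, and ranked the animals as Lcn2 did. That order was shared with Lcn2 by 2.73% of other genes with a mean of 1 CPM or more. It was compared after the values had been seen, and a link between Cebpd and Lcn2 was not tested. Cebpb had 7.98 ± 2.23 CPM and Cebpe, a factor of granulocytes, no count.

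**Figure D5:**
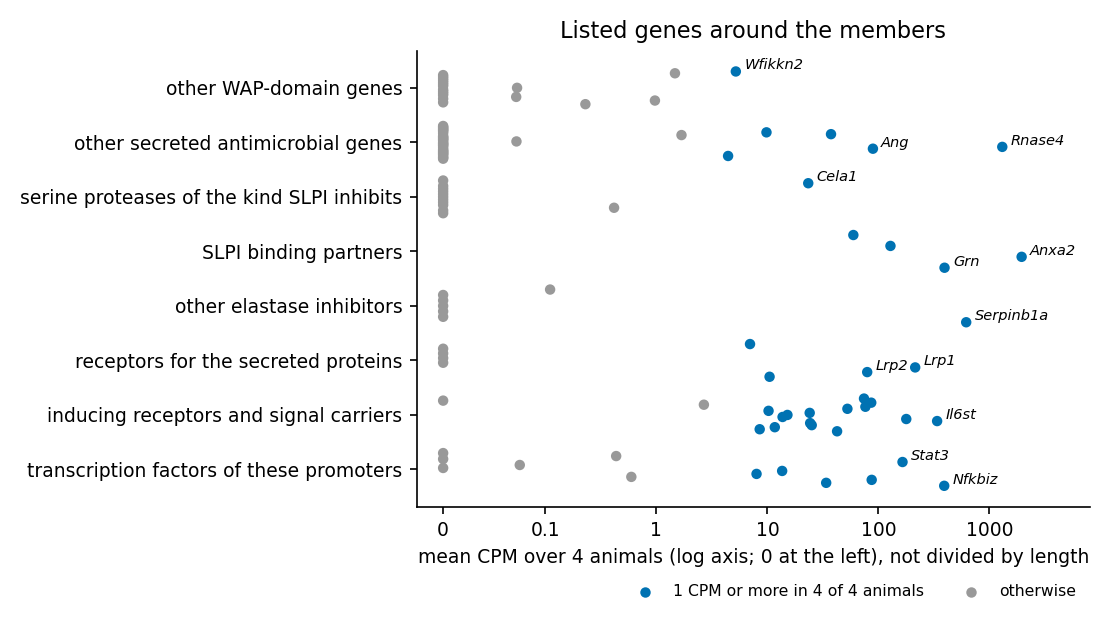
Mean CPM over 4 animals of each listed gene, 1 row of points per list, on a log axis with 0 at the left and no division by length. Blue points reached 1 CPM in 4 of 4 animals. All 4 binding partner genes and 1 of 13 serine protease genes did, where 24.1% of all genes did.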

How the data were processed

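RNA of sorted mesothelial cells was sequenced in 4 animals after depletion of ribosomal RNA. The deposited table gives estimated counts per gene symbol, 1 column per animal, and 99.75% to 99.95% of nonzero values were not whole (tolerance 0.000001). Per the submitters' processing notes, kallisto 0.43.1, edgeR 3.24.3, limma 3.38.3 and GRCm38.p5 were used, with no role stated; the step from transcripts to genes, and strandedness, are not given in the sources used here. Estimated counts depend on how reads were split between similar transcripts.

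CPM was each value over its column sum. TMM (edgeR 4.0.16) and DESeq2 1.42.0 size factors, both under R 4.3.3, were alternatives, as was leaving out each animal; counts were rounded for DESeq2 and for the comparison of libraries. No model was fitted and no p-value computed, since 1 group gives no contrast. Pairs of libraries differed by a chi-square per gene of 10.68 (animals 1 and 4) to 26.23 (animals 1 and 2) over genes with at least 10 counts in the pair, so all were kept. Positions, lengths and 31-base words came from GENCODE M21 (GRCm38), which held 98.3% of the symbols; the authors' annotation is not given. Genes of like level lay within 0.5 on the mean log2 scale.

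Members and lists were chosen with earlier results of these data known. Named genes are the members, the 4 highest of each list and any that bear on a member, the 3 nearest in profile, and Slpi's neighbours in level.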

Additional observations from a re-analysis of the deposited data

Results flagged for a closer look

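Tested were 63 genes with any spread: the members, the 4 highest of each list, the nearest in profile and Slpi's neighbours in level. Other named genes, such as C1qb and Svs6, were not tested. Of the 63, 11 had a highest animal whose gap to the next exceeded Dixon's 95% critical share of the range for 4 samples. Chance gives about 1 in 20. For 6 of the 11 that share is not a guide, since they had counts in 1 animal only and the gap is then the whole range. Lyz1 was 1.503 CPM in animal 1 and 0 in the others, and Ptprc 3.05 CPM in animal 1 and at most 0.187 CPM in the others. Ovgp1, an oviduct gene, had 2.002 CPM in animal 1 against 0.812 to 0.888 CPM, and Muc1 had 4.04 CPM there against at most 0.684 CPM. Krt20 had 7.37 CPM in animal 2 against at most 0.212 CPM, and Plscr4 had 79.7 CPM there against 50.3 to 53.9 CPM. The others had 0 in 3 animals: Wfdc15b with 0.212 CPM in animal 3, Wfdc3 with 0.917 CPM in animal 4, A2m with 0.441 CPM in animal 2, and Mpo and Mmp9 with 0.331 and 0.235 CPM in animal 4. The causes were not tested.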

How the results depend on the processing

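Of 217 alternative values, 197 counted as unchanged. Levels and the log2 ratio had to stay within 1 SD between animals, percentiles within 10 points and counts within 1.5 times. Some of these outcomes were fixed in advance. Leaving out 1 of 4 values cannot move a mean by 1 SD, and scaling factors cancel in the within-animal ratio. The number unchanged is therefore not a measure of robustness. Slpi averaged 9902 CPM by TMM, 9896 CPM by DESeq2 size factors and 8574 to 11169 CPM with 1 animal left out. The log2 ratio of Slpi to Wfdc1 per length, 5.56, was 5.84 with the median transcript length and 5.40 to 5.80 with 1 animal left out. The order of the members per length changed only without animal 1, where Lyz1 fell to 0. Lyz1, 0.376 CPM alone, became 2.60 CPM as the sum with Lyz2. Leaving out 1 animal gave a percentile of spread among genes of like level of 66.7 to 100 for Slpi (6 such genes) and 23.5 to 62.4 for Wfdc1. The place of Slpi among genes of 1000 CPM or more, a measure added after seeing the data, was 10 under TMM and DESeq2 factors and 7 to 43 without 1 animal. Of the 3 genes nearest Slpi, 0 to 3 stayed among the 10 nearest with 1 animal left out, and 0 when genes from 10 CPM were admitted; for Wfdc1 it was 0 to 1 with 1 animal left out and 3 with genes from 10 CPM. Genes at 1 CPM in every remaining animal numbered 1 to 2 in the list of other WAP genes and 1 to 2 in the epithelial list, and 3 to 4 among the members. Against genes with at least 1 count in any library, 56.2% met the 1 CPM rule. Causes were not tested. No paired analysis was possible because the series holds 1 group. Depth limits Wfdc2, Wfdc15b, Lyz1 and Lyz2, whose levels rest on fewer than 60 counts each.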
